A study of Homo sapiens with 8 samples.

Results

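The short snoRNA genes of 2 clear cell renal cell carcinoma (ccRCC) cell lines were examined. They are the RefSeq noncoding entries whose symbols begin with SNORD, SNORA or SCARNA, whose locus spans under 400 bp, and whose summed FPKM averaged at least 1 over the 8 libraries. FPKM counts reads per kilobase of a gene's length and relates them to all mapped reads of a library. The rule kept 196 genes (121 SNORD, 68 SNORA and 7 SCARNA) of 367 short snoRNA symbols and of 22678 RefSeq genes. Of the 171 symbols left out, 133 were at 0 in every library. The members were chosen by their mean FPKM, so their levels are a description.

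RNA-seq had been performed on A498 and 786-O, both established human ccRCC lines, to find the genes that respond to knockdown of the lincRNA SLINKY. For each line there were 2 libraries with the non-targeting control (NTC) siRNA, 1 with SLINKY siRNA #1 and 1 with SLINKY siRNA #2. A498 was grown in DMEM and 786-O in RPMI-1640, so medium and line cannot be told apart. All cells, controls included, received siRNA at 50 nM by lipofection, and the labels give 16 hrs, while the study's methods give a later time of RNA isolation. The labels describe the siRNAs as On-TARGETplus pools, while the study describes the SLINKY siRNAs as independent, with 1 sequence each, and the NTC as a pool. Each SLINKY siRNA had 1 library per line. Nothing states that the NTC libraries came from separate cultures, so the p-values measure the spread between these libraries, which may be technical. Libraries were made from total RNA with the TruSeq RNA Sample Prep Kit and sequenced as single-end 36-bp reads. Whether RNAs with a poly(A) tail were selected is not stated. The values are therefore not taken as levels of the mature snoRNAs.

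SLINKY was at 14.6 and 16.1 FPKM in the A498 NTC libraries and at 1.64 and 3.01 FPKM with siRNA #1 and #2. In 786-O it was at 1.45 and 1.39 FPKM against 0.0569 and 0.594 FPKM. The renal transcription factor PAX8 was at 39.2 to 48.1 FPKM in all libraries, the ccRCC marker CA9 at 0 to 0.559 FPKM. The leukocyte markers PTPRC and CD3E and the fibroblast marker COL3A1 were listed at 0 throughout. The endothelial markers reached at most 0.0385 FPKM and the fibroblast markers DCN and LUM at most 0.677 FPKM. CD68 was at 138 to 151 FPKM in A498 and 1.70 to 5.20 FPKM in 786-O.

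Small nucleolar RNAs guide chemical modification of other RNAs. Box C/D snoRNAs (SNORD) carry a C box near the 5′ end and a D box near the 3′ end, and direct methylation of the ribose by fibrillarin. Box H/ACA snoRNAs (SNORA) fold into hairpins followed by an H box and an ACA box, and direct pseudouridylation by dyskerin. The scaRNAs (SCARNA) reside in Cajal bodies and guide modification of spliceosomal RNAs. Most human snoRNAs are encoded within introns of host genes and are trimmed from the spliced intron by exonucleases. The mature RNAs carry no poly(A) tail, whereas their hosts are often genes for ribosomal proteins and other parts of the translation machinery.

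The following sequences belong to the genes on which the results turn. They were read from GRCh37, the build of the deposited coordinates, 5′ to 3′ on the strand of the gene. In the SNORD sequences, capitals mark the C box core (TGATG) and the D box (CTGA). In the SNORA sequences they mark the ACA box. The first set holds the 3 SNORD36 genes of RPL7A (plus strand), which differ widely in level although they share a host gene. SNORD36A lies at chr9:136217311-136217382, SNORD36B at chr9:136216949-136217019 and SNORD36C at chr9:136217701-136217767.
SNORD36A: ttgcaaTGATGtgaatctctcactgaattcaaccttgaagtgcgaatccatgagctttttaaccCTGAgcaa
SNORD36B: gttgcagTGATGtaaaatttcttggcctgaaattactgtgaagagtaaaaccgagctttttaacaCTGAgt
SNORD36C: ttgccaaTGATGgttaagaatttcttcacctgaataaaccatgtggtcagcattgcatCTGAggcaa

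The second set holds C/D genes that were higher in 786-O, together with SNORD95, which lies in the same host as SNORD96A and was hardly read. SNORD96A is at chr5:180668818-180668889 and SNORD95 at chr5:180670314-180670376, both on the minus strand within RACK1. SNORD20 is at chr2:232321155-232321234 on the minus strand within NCL, and SNORD57 at chr20:2637585-2637656 on the plus strand within NOP56. SNORD68 is at chr16:89627838-89627909 on the plus strand within RPL13.
SNORD96A: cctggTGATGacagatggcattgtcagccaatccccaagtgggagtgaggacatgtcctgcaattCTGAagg
SNORD95: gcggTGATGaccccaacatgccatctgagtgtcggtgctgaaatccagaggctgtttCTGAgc
SNORD20: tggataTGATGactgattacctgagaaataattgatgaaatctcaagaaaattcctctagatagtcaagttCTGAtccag
SNORD57: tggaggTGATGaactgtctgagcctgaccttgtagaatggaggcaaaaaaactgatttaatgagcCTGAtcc
SNORD68: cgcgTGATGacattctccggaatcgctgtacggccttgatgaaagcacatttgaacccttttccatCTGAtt

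The third set holds H/ACA genes. SNORA10 (chr16:2012335-2012467) and SNORA64 (chr16:2012974-2013107) lie on the minus strand within RPS2, and SNORA70 (chrX:153628622-153628756) on the plus strand within RPL10. SNORA7A (chr3:12881811-12881949, within RPL32) and SNORA7B (chr3:129116053-129116191), both on the minus strand, are shown because they differ at 2 of 139 positions.
SNORA10: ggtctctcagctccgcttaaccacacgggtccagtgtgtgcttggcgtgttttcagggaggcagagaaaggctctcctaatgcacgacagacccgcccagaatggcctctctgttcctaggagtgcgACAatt
SNORA64: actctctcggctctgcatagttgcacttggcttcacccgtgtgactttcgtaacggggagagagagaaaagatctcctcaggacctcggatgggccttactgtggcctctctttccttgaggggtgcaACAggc
SNORA70: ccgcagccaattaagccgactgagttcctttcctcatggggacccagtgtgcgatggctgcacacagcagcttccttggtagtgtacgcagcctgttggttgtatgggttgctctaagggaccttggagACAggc
SNORA7A: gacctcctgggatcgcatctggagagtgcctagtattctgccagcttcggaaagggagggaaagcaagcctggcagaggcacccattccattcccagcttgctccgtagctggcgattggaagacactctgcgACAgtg
SNORA7B: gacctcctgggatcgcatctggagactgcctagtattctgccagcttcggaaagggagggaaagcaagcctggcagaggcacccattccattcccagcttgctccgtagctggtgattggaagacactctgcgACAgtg

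Both boxes were common among the genes kept. TGATG within the first 20 bases together with CTGA within the last 20 was present in 93 of the 121 SNORD genes, and in 96 of the 122 short SNORD symbols left out. ACA within the last 9 bases together with ANANNA in the middle part of the gene, on the RNA strand only, was present in 61 of the 68 SNORA genes and 28 of the 34 left out. No strand could be assigned to 8 of the 196 genes, which were searched on the plus strand. The SNORD genes spanned 54 to 237 bp with a median of 77 bp, the SNORA genes 121 to 250 bp with a median of 133 bp. Single reads of 36 bases cannot always place a read: 9 members, all SNORA, shared a run of 36 bases with another short snoRNA gene, and SNORA7A and SNORA7B were among them.

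It was examined next on how many reads each value stands. Cufflinks gives each FPKM a 95% interval, and its upper bound holds the reads, since it exceeds the value by a share of 2 divided by the square root of the reads. For the short snoRNA entries with status OK and a value above 0.001 FPKM, 92.4% to 96.5% of the values in a library came out as whole reads (within 0.01). Entries with status LOWDATA, which 46 of the 196 genes had in some library, mostly gave fractions of reads. Of the values without status OK, 1 came out whole in A498 NTC 2 and 0 in the other libraries. Depth, estimated in the same way from olfactory receptor genes, was 53.2, 36.7, 35.4 and 25.2 M reads in A498 (NTC 1, NTC 2, siRNA #1, siRNA #2) and 36.4, 64.8, 36.6 and 47.1 M in 786-O. The reads given below are each FPKM divided by the FPKM that 1 read is worth at that span, taken from entries with whole reads. Limits drawn from these read numbers cover counting error only, since copies made in amplification are not stated to have been removed.

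A single read was worth a great deal in genes this short. At a span of 72 bp the effective length was 0.643 bases, and 1 read was worth 24.0 to 61.8 FPKM depending on the library. At 133 bp 1 read was worth 2.24 to 5.75 FPKM, and at 55 bp 86.0 to 221 FPKM. Over all 8 libraries together, 70 of the 196 genes had fewer than 8 reads, 55 of them SNORD, 12 SNORA and 3 SCARNA. At the other end, 19 genes had 160 reads or more. SNORA67, in EIF4A1, held 7.94% of all reads of the 196 genes, and the 10 genes with the most reads held 42.5%.

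**Figure D1:**
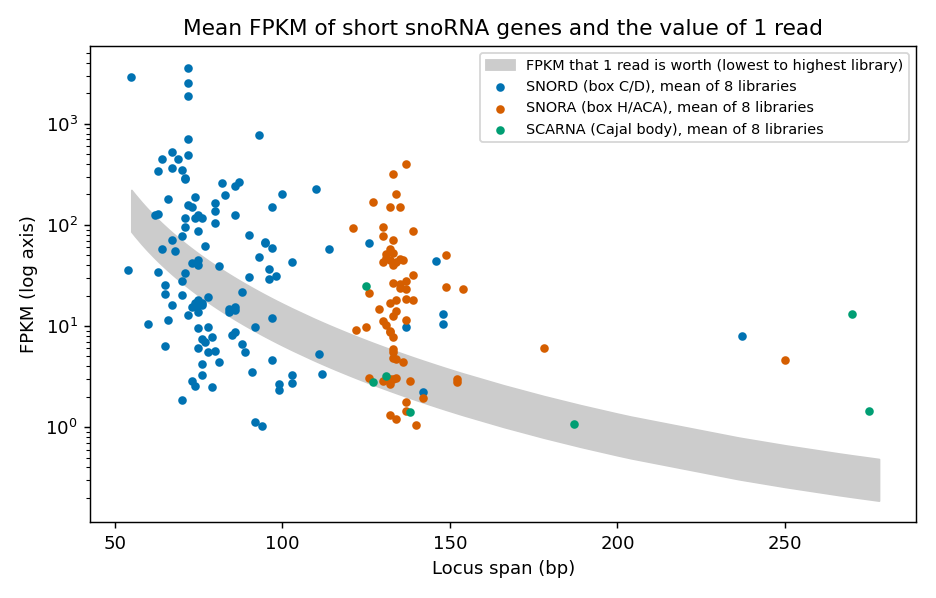
Each point is one of the 196 genes, at its locus span in bp (x axis) and its mean FPKM over the 8 libraries (y axis, log scale), coloured by class. The grey band is the FPKM that 1 read is worth, from the deepest to the shallowest library, 24.0 to 61.8 FPKM at 72 bp and 2.24 to 5.75 FPKM at 133 bp. Genes under the band averaged less than 1 read per library.

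The minimum of 1 FPKM therefore divided genes on very few reads. Just outside it lay SNORA12 (0.926 FPKM, 3 reads in all), SNORA36B (0.927 FPKM, 2 reads) and SNORA2A (0.946 FPKM, 2 reads). Just inside lay SNORD111 (1.02 FPKM, 1 read in 1 library), SNORA29 (1.05 FPKM, 3 reads) and SCARNA16 (1.08 FPKM, 8.96 reads).

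Among the box C/D genes SNORD36A was highest, at 3594 ± 1189 FPKM (SD, n = 8). Its values in A498 were 2134 and 3389 FPKM with NTC and 2328 and 2719 FPKM with siRNA #1 and #2, and in 786-O 4103, 4560, 3904 and 5611 FPKM in the same order. All 786-O libraries were above all A498 libraries. SNORD36B and SNORD36C, elsewhere in RPL7A, averaged 292 and 522 FPKM, with 59 and 83 reads in all against 798 for SNORD36A, and the lines overlapped for both. The plot of the highest genes shows that SNORD139, in RPL3, came next by FPKM. Its values ranged from 1531 to 4126 FPKM and the lines overlapped, but its span of 55 bp means that 183 reads gave its mean of 2921 FPKM.

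SNORD96A, which lies in the gene of the ribosomal scaffold protein RACK1, was at 1023, 1186, 1230 and 680 FPKM in A498 (NTC 1, NTC 2, siRNA #1, siRNA #2). In 786-O it was at 3847, 3864, 4541 and 3663 FPKM. These stood on 11 to 35 reads per A498 library and 90 to 161 reads per 786-O library. SNORD68 ranged from 1112 to 1906 FPKM in A498 and from 1968 to 2886 FPKM in 786-O. SNORD83B was at 461 to 593 and 821 to 1312 FPKM, and SNORD57 at 212 to 468 and 792 to 1188 FPKM. The lines did not overlap for these 4 genes. SNORD4A, in RPL23A, ranged more widely within A498, from 146 FPKM with NTC to 681 FPKM with siRNA #2, and from 491 to 850 FPKM in 786-O, so that its lines overlapped.

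Among the H/ACA genes SNORA67 was highest, at 399 FPKM on average, and its lines overlapped (336 to 404 FPKM in A498, 309 to 477 FPKM in 786-O). It had status LOWDATA and lies within the EIF4A1 entry, and its reads came out as fractions. SNORA10 was at 234, 197, 225 and 201 FPKM in A498 and 478, 362, 478 and 390 FPKM in 786-O. SNORA64, in the same host RPS2, ranged from 84.5 to 159 FPKM and from 224 to 317 FPKM. SNORA70 was tight within A498, at 87.2 to 93.4 FPKM, and ranged from 162 to 236 FPKM in 786-O. SNORA40 and SNORA18, in TAF1D, completed the 6 highest, and in all of these but SNORA67 the lines did not overlap.

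The scaRNAs were low. SCARNA22 averaged 24.9 FPKM on 45 reads in all, and its libraries overlapped between the lines. SCARNA12, in the prohibitin gene PHB2, was at 8.22 to 10.8 FPKM in A498 and 14.3 to 18.2 FPKM in 786-O. At its span of 270 bp these values stood on 340 reads, whereas SNORD139 reached 2921 FPKM on 183 reads. SCARNA8 and SCARNA15 had 6 and 5.8 reads in all.

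**Figure D2:**
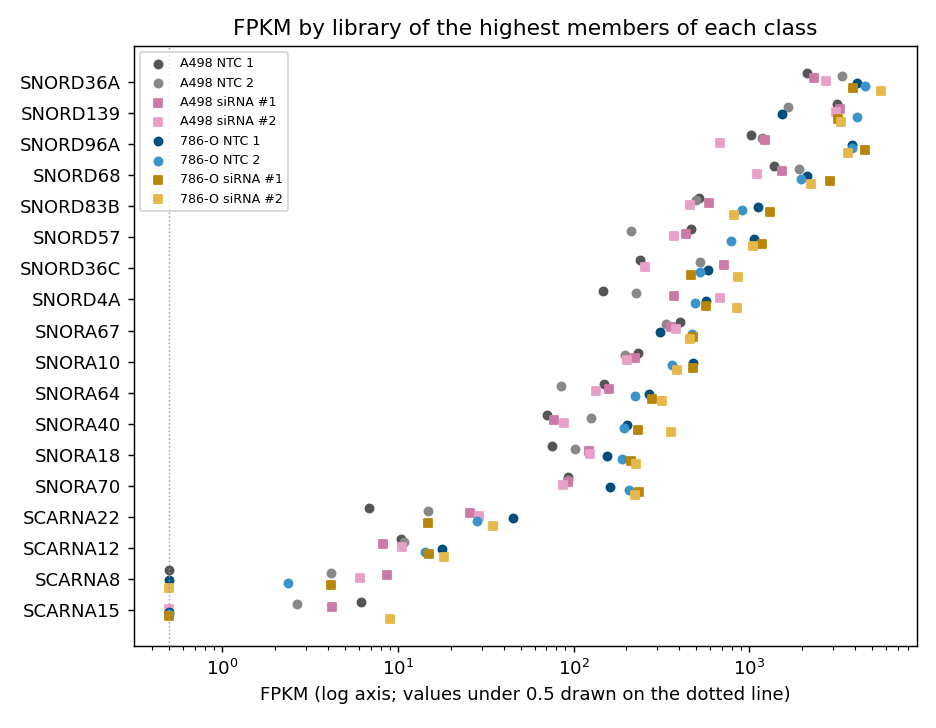
FPKM (x axis, log scale) in each of the 8 libraries for the 8 SNORD, 6 SNORA and 4 SCARNA genes with the highest means; circles are NTC libraries and squares siRNA libraries, and values under 0.5 FPKM sit on the dotted line. SNORD96A separates the lines, at 680 to 1230 FPKM in A498 and 3663 to 4541 FPKM in 786-O, while SNORD139 and SNORA67 overlap.

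Detection was compared by library, line and class. At least 1 FPKM was reached by 135, 131, 130 and 130 of the 196 genes in A498 (NTC 1, NTC 2, siRNA #1, siRNA #2) and by 139, 157, 147 and 154 in 786-O. The lines did not overlap, but the 786-O libraries were also deeper on the whole. In the 4 libraries of like depth (35.4 to 36.7 M reads), 131 and 130 genes were detected in A498 and 139 and 147 in 786-O. A value above 0 in every library was found for 96 genes, and a value above 0.001 FPKM, the limit under which no reads were recovered, for 87. At least 1 FPKM in every library was found for 84. A lower 95% bound above 0, which takes more than 4 reads, was met in every library by 29 genes. By class, 55.4% to 59.5% of the SNORD genes reached 1 FPKM in an A498 library and 63.6% to 75.2% in a 786-O library. For the SNORA genes the shares were 77.9% to 86.8% and 85.3% to 92.6%. The share was lower for the C/D genes than for the H/ACA genes in each of the 8 libraries. The median gene had 11 reads in all among SNORD and 43.5 among SNORA. The rule bears on this contrast, since 1 read is worth more FPKM in a shorter gene. SNORD111 was kept on 1 read, while SNORA36B and SNORA2A were left out on 2 reads each. The class difference is therefore a description and is not read as a result about the classes.

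Of the 196 genes, 18 reached 1 FPKM in 786-O only and 8 in A498 only, and 17 in 1 library only. All 17 were SNORD genes, which the rule admits on fewer reads. The minimum kept these genes through the line or library in which they had reads, and the 786-O libraries were deeper on the whole. The share over all genes tested was not computed, so the counts are a description only. A count of 0 allows up to 3 reads, each worth the FPKM given above, so a gene at 0 was not detectable at this depth rather than absent.

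The members' reads were more abundant in 786-O. Summed and divided by the depth in M (RPM), they came to 27.9, 27.4, 29.8 and 30.3 RPM in A498 and 45.6, 43.7, 53.1 and 53.2 RPM in 786-O. The mean was 28.9 ± 1.39 against 48.9 ± 4.99 RPM (SD, n = 4 each), a ratio of 1.69. Both classes shared this: SNORD genes summed to 12.9 ± 0.768 and 21.7 ± 2.12 RPM, SNORA genes to 14.9 ± 1.05 and 25.7 ± 2.86. In neither class did the lines overlap. The ratio was 1.61 between the NTC libraries alone, 1.77 between the siRNA libraries alone and 1.74 without the 3 genes with the most reads. It was not as high in every subset. The 120 genes that overlap an exon of another gene had a ratio of 1.76, and the 67 genes in introns only had a ratio of 1.28. The intronic genes summed to 3.56, 3.56, 4.76 and 4.74 RPM in A498 and 4.55, 4.26, 6.71 and 5.80 RPM in 786-O, so that the lines overlapped. The reads of all members were obtained from their FPKM, so RPM and FPKM are not independent measures. On the FPKM scale the members made up 2.96% to 3.42% of the summed FPKM of all RefSeq genes in A498 and 4.41% to 5.57% in 786-O. The C/D genes held most of that FPKM but fewer of the reads than the H/ACA genes. In bulk RNA, fewer copies per cell and fewer cells that carry an RNA cannot be told apart.

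**Figure D3:**
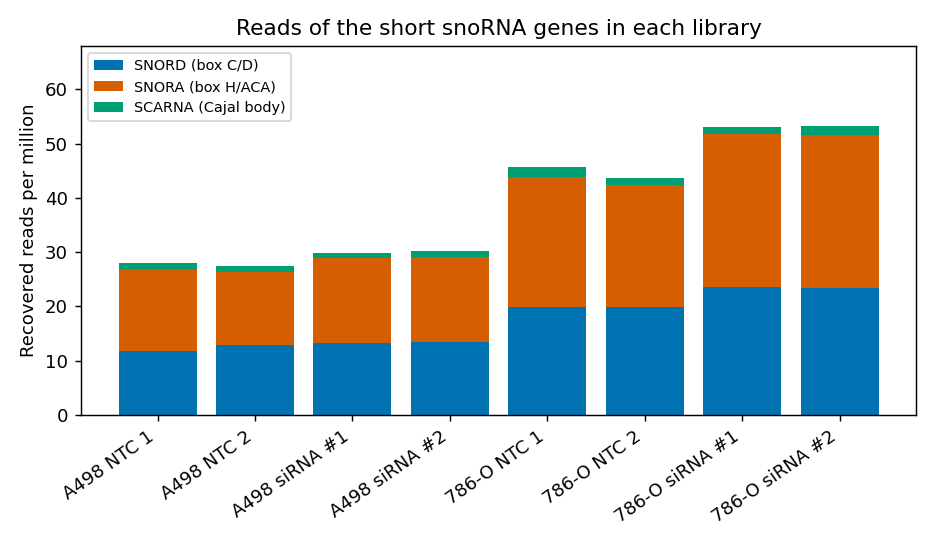
Reads recovered from the deposited intervals and divided by depth (RPM, y axis), summed over the SNORD, SNORA and SCARNA genes in each of the 8 libraries (x axis). The 4 A498 libraries reach 27.4 to 30.3 RPM and the 4 786-O libraries 43.7 to 53.2, with the siRNA libraries above the NTC libraries in each line.

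The lines were then compared gene by gene with limma on log2(FPKM + 0.1), fitted over 11367 genes with the knockdown as a covariate. Of the 196 snoRNA genes, 45 were higher in 786-O and 4 higher in A498 (limma adjusted p under 0.05). That is 25% of them, against 80.5% of all genes tested (41.4% higher in 786-O and 39.1% higher in A498). With values whose 95% interval reaches 0 set to 0, 27 members were called, 25 of them among the 49. The median log2 difference of the 196 genes was 0.88 and 147 of them lay above 0, while all genes tested had a median of 0.024. The median standard error was 1.46 for the snoRNA genes and 0.059 for all genes. Of the 20 genes whose A498 mean was under 1 FPKM and the 9 whose 786-O mean was under 1 FPKM, each had passed the minimum through the other line. Among the 167 genes at a mean of 1 FPKM or more in both lines, 42 were higher in 786-O and 2 in A498.

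The share of genes called went with the reads. Of the 19 genes with 160 reads or more, 14 were called higher in 786-O and 0 higher in A498 by limma. Of the 53 genes with 40 to under 160 reads, 20 were called higher and 2 lower in 786-O. Of the 124 genes with fewer than 40 reads, the calls were 11 and 2. The libraries of the lines did not overlap, with 786-O above, for 32 genes (16 SNORD, 15 SNORA and 1 SCARNA), and with A498 above for 3. Over all genes tested, 38.9% and 36.6% did not overlap in these directions.

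**Figure D4:**
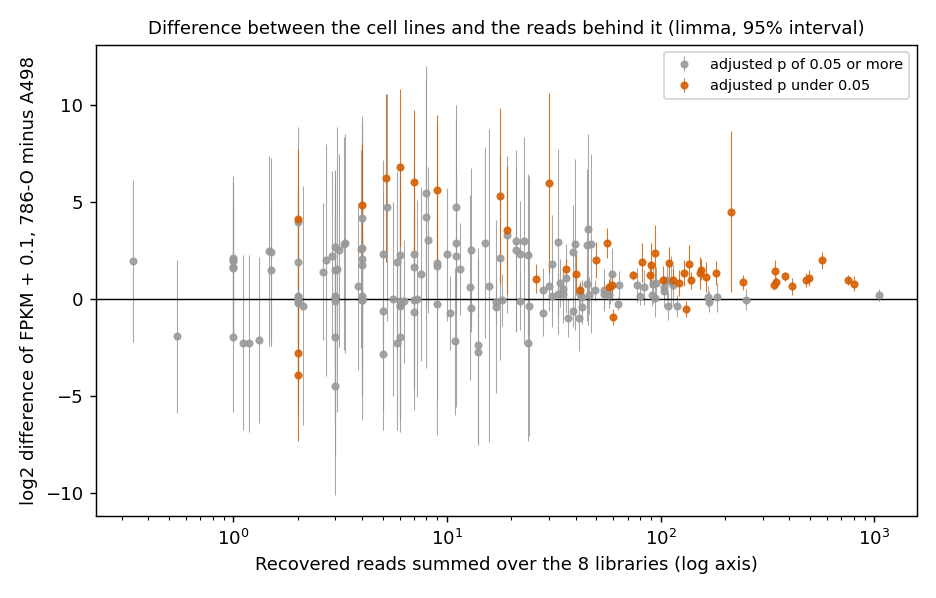
The log2 difference of FPKM + 0.1 between 786-O and A498 (y axis, limma estimate with its 95% interval) against the reads summed over the 8 libraries (x axis, log scale) for the 196 genes; those past an adjusted p of 0.05 are in orange. Of the 19 genes with 160 reads or more, 14 are orange and above 0.

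Among the C/D genes SNORD96A had a log2 difference of 1.98 with a standard error of 0.19 (limma adjusted p = 2.65e-05). SNORD20, in the nucleolin gene NCL, was at 18.9, 27.3, 85.0 and 39.8 FPKM in A498 and 248, 186, 493 and 234 FPKM in 786-O, on 1, 1, 3 and 1 reads against 9, 12, 18 and 11. Its difference was 2.89 (standard error 0.34, limma adjusted p = 9.60e-05). SNORD57 differed by 1.51 (standard error 0.23), SNORD5 by 1.54 (0.22) and SNORD83B by 0.99 (0.16), and SNORD36A by 0.79 (0.17) and SNORD68 by 0.65 (0.18), all past the limma threshold.

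Among the H/ACA genes SNORA4, in the translation factor gene EIF4A2, was at 14.7, 14.2, 18.4 and 20.7 FPKM in A498 and 35.7, 36.1, 49.7 and 35.9 FPKM in 786-O. Its difference was 1.21 (standard error 0.10, limma adjusted p = 1.51e-05). SNORA70 differed by 1.16 (0.10), SNORA10 by 0.99 (0.11), SNORA64 by 1.08 (0.17) and SNORA18 by 0.90 (0.10), all in the same direction and past the limma threshold. SNORA67, with the most reads of all, was not called. SNORA61 was at 24.0, 30.9 and 29.9 FPKM in the A498 libraries other than siRNA #1, where it was at 3.87e-07 FPKM with status LOWDATA, and at 101 to 284 FPKM in 786-O. Its fitted difference of 4.50 (limma adjusted p = 0.046) depends on the pseudocount. SCARNA12 differed by 0.71 (0.11) and was the 1 scaRNA called.

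The 4 genes higher in A498 were of 2 kinds. SNORA14B, in TOMM20, was at 36.1, 29.9, 31.0 and 38.1 FPKM in A498 and 22.6, 12.7, 18.7 and 17.5 FPKM in 786-O, a difference of -0.94 (standard error 0.17, limma adjusted p = 0.0014). SNORD17, in SNX5, was at 7.73, 10.7, 7.2 and 12.5 FPKM in A498 and at 6.05 to 7.07 FPKM in 786-O, a difference of -0.51 (0.17). SNORD92 and SNORA14A had 2 reads each in all 8 libraries, both in the A498 siRNA libraries. These 4 were named after their values were seen, apart from SNORD92 and SNORA14A.

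The host genes were set beside the snoRNA genes. A RefSeq gene whose locus contains the member on the same strand was found for 167 members, and for 153 of them the host was tested (90 hosts, of which 57 were higher in 786-O and 13 in A498 by limma). The shares over all genes tested were 41.4% and 39.1%. Of the 36 called members with a tested host, 29 were higher in 786-O together with the host, and 1 was higher in A498 together with it. SNORD17 was that one: its host SNX5 was at 58.9 ± 3.35 FPKM in A498 and 32.3 ± 1.06 FPKM in 786-O (SD, n = 4). Of the other called members, 2 were higher in 786-O with the host higher in A498, and 2 with the host not called. Another 2 were higher in A498 with the host higher in 786-O. As 120 of the 196 genes overlap an exon of another gene, member and host values may not be independent. SNORA14B went against its host TOMM20, which was at 56.3 ± 2.07 FPKM in A498 and 73.5 ± 2.12 FPKM in 786-O. SNORD4A, in RPL23A, differed by 0.99 on the log2 scale and its host by -0.12.

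The size of the difference was often larger in the snoRNA gene than in its host. SNORD96A differed by 1.98 and RACK1 by 0.46, where RACK1 was at 1285 ± 55.2 FPKM in A498 and 1767 ± 59.4 FPKM in 786-O. SNORD20 differed by 2.89 and NCL by 0.99. SNORD36A differed by 0.79 and its host RPL7A by 0.75, and SNORD57 by 1.51 and its host NOP56 by 1.19. Over the 15 members with 160 reads or more and a tested host, the median difference was 0.79 for the members and 0.58 for their hosts, and the member exceeded the host in 11. These comparisons of member and host were not tested against each other.

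Members of one host had a range of values. In RPL3, SNORD83B differed by 0.99 and SNORD139 by 0.079, while RPL3 itself differed by 0.60. The 4 genes of RPL7A had log2 differences from -2.24 (SNORD24, on 24 reads in all) to 0.79, and those of NOP56 from -0.055 (SNORA51) to 1.51 (SNORD57). The 4 genes of the ribosomal protein gene RPL13A lay between 0.23 and 0.71, and none was called. Of the 8 genes within TAF1D, which encodes a factor of RNA polymerase I, 6 were higher in 786-O, from 0.86 for SNORA8 to 1.78 for SNORA25, and 2 were not called (SNORA1 and SNORD6). TAF1D itself differed by 0.55 (limma adjusted p = 2.41e-05, standard error 0.051).

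The position of the member relative to other genes went with the reads. By GENCODE v44 on GRCh37, 120 of the 196 genes overlapped an exon of another gene on the same strand in at least 1 annotated transcript, and 67 lay in introns only. The former held 87.7% of the reads, with a median of 39.4 reads per gene against 7 for the latter. At least 1 FPKM in every library was reached by 56.7% of the former and 23.9% of the latter. The remaining 9 members lay in no annotated gene on their strand or had no strand assigned. The kit is not stated to keep the strand, so reads of a snoRNA, of a host transcript that keeps its intron and of an antisense transcript cannot be told apart. The calls between the lines were 37 higher in 786-O and 0 higher in A498 by limma for the exon-overlapping genes, and 8 and 4 for the intronic ones. Over all genes tested, 41.4% were higher in 786-O and 39.1% in A498. Among the 4, SNORD92 and SNORA14A had reads in the A498 siRNA libraries only and passed the minimum through them. Nothing is read from the contrast of the positions in these calls.

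The proteins that bind and mature snoRNAs were examined as a list. Of 30 genes 29 were tested, and 19 were higher in 786-O and 5 in A498 (limma adjusted p under 0.05). All 4 box C/D core proteins were higher in 786-O: fibrillarin FBL by 0.53 on the log2 scale, NOP58 by 0.55, SNU13 by 1.16 and NOP56 by 1.19. Of the box H/ACA core, dyskerin DKC1 (0.79), NHP2 (0.78) and GAR1 (0.34) were higher, and NOP10 was at 400 ± 8.83 and 386 ± 4.66 FPKM and was not called. Of the 9 assembly genes 7 were higher in 786-O, among them RUVBL1 (0.79) and ZNHIT6 (0.71), and PIH1D1 was higher in A498. The nuclear exosome subunit EXOSC10 was higher in 786-O by 1.06, and the Cajal body protein COIL was higher in A498 (a difference of -0.71). Over all genes tested, 41.4% were higher in 786-O and 39.1% in A498.

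The knockdown was compared next. In every fit SLINKY siRNA #1 and #2 were taken as replicates of the knockdown, so the spread includes differences between the siRNAs. Over both lines limma called none of the 196 genes and 1 of all genes tested (0.0088%). At an unadjusted p under 0.05 there were 24 of the 196 genes and 1302 of the 11367 genes tested, a like share. The genes with most reads had small differences: SNORD36A differed by 0.0089 on the log2 scale (95% interval -0.39 to 0.41), SNORA10 by 0.021 (-0.24 to 0.28) and SNORA67 by 0.15 (-0.17 to 0.47). None of the 29 snoRNP and biogenesis genes was called by limma in any of the knockdown comparisons.

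Within A498 limma called 5 members higher and 3 lower after knockdown, against 0.0704% and 0.106% of all genes tested (0.176% in all). Within 786-O it called 3 higher and 2 lower, against 0.0528% and 0.088% (0.141% in all). Limma's interaction term passed the threshold for 3 members, 1 more positive and 2 more negative in 786-O (0.0704% of all genes tested in each direction). Of these, SNORD19 and SNORD92 have 2 reads each in all and passed the minimum of 1 FPKM only through the siRNA libraries of 1 line, so nothing is read from these calls. Their reads are few. In A498, SNORD84, SNORD92, SNORA20, SNORA14A and SNORD42B had no read in either NTC library and 1 to 3 reads in each siRNA library. SCARNA21, SNORA2B and SNORD11 had 1 to 3 reads in each NTC library and none in the siRNA libraries. In 786-O, SNORD1A and SNORD95 had 1 and 2 reads in the NTC libraries and none in the siRNA libraries. SNORD19 had 1 read in each siRNA library and none in the NTC libraries, SNORA36A 2.4 and 2.5 reads and SNORD104 0.47 and 0.48 reads. Each of these libraries is within the 3 reads that a count of 0 allows, so the fitted changes are no measure of size. The calls also changed with the libraries used: in A498, 13, 15, 22 and 14 members were called without NTC 1, NTC 2, siRNA #1 and siRNA #2, and 3 to 5 of the 8 were among them. In 786-O, 10, 5, 18 and 13 members were called without the same libraries, and 2 to 5 of the 5 were among them. The reads taken from each entry's own interval were also fitted on a log scale. Limma then called 0 members in each line (12 genes of all those tested in A498 and 12 in 786-O).

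**Figure D5:**
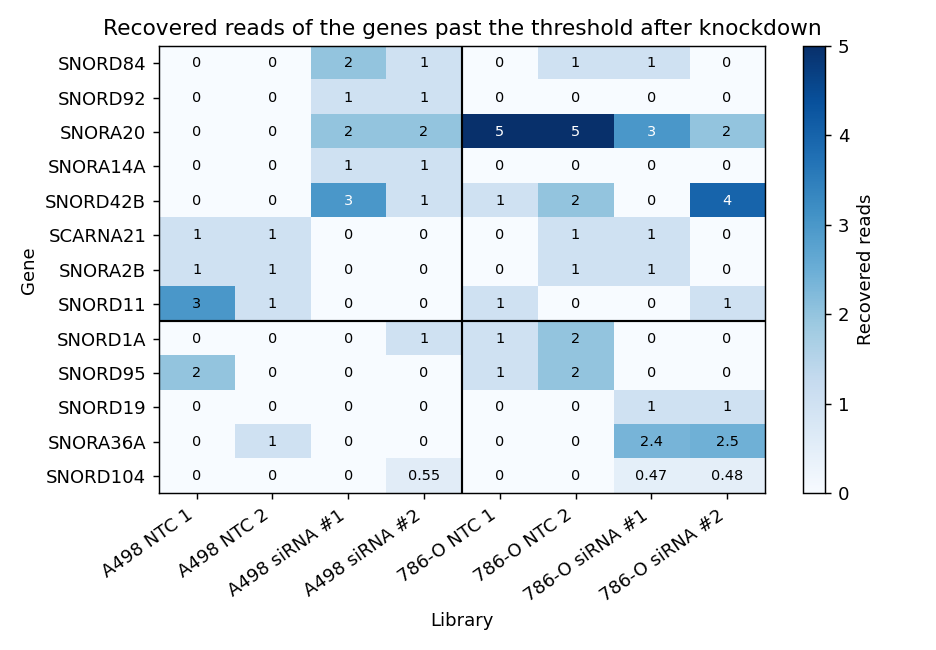
Reads recovered in each of the 8 libraries (columns) for the 13 genes that passed the limma threshold after knockdown (rows), the 8 of A498 above the line and the 5 of 786-O below it. The number in each cell is the reads, and in its own line no gene has more than 3 in a library.

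The study's own fold threshold was applied to each siRNA library against the mean of its NTC libraries. It is passed upward by a rise of 25% or more and downward by the reciprocal. With siRNA #1 in A498, 32.7% of the members were higher and 32.1% lower, against 2.24% and 3.33% of all genes tested. With siRNA #2 in A498 the members' shares were 36.2% and 35.7%, against 3.19% and 4.21%. In 786-O they were 36.7% and 27.6% with siRNA #1, against 3.96% and 3.58%, and 45.9% and 30.6% with siRNA #2, against 2.95% and 2.82%. Between the NTC libraries themselves the members' shares were 32.7% and 33.2% in A498, against 3.23% and 3.08%, and 29.6% and 33.2% in 786-O, against 3.33% and 2.79%. In either direction together, 62.8% and 65.8% of the members passed between controls and 64.3% to 76.5% after knockdown. For the 19 members with 160 reads or more these shares were 36.8% and 57.9% between controls and 31.6% to 52.6% after knockdown. The comparisons are unlike, since 1 siRNA library is set against the mean of 2 NTC libraries but NTC 2 against NTC 1 alone. The shares between controls are therefore no exact baseline for those after knockdown.

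The summed reads, scaled to depth, were higher in the siRNA libraries than in the NTC libraries of each line, 29.8 and 30.3 against 27.9 and 27.4 RPM in A498 and 53.1 and 53.2 against 45.6 and 43.7 in 786-O. The ratios of the means were 1.08 and 1.19, with 2 libraries on each side and no test. Without the 3 genes with most reads the ratios were 1.12 and 1.21. The intronic genes had ratios of 1.33 and 1.42, and the exon-overlapping genes 1.05 and 1.16. The 90 tested hosts had a median log2 change of 0.0017 after knockdown over both lines, 46 of them above 0, and limma called 0.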

How the data were processed

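Per the labels and the study's methods, RNA was sequenced from A498 and 786-O cells as single-end 36-bp reads mapped to hg19. The submitters' processing notes name TopHat2 version 2.0.0 and Cufflinks version 2.0.2. The authors deposited FPKM values for every library separately, each with its 95% interval and status, in 75378 entries per library. Rows were joined on entry and locus, because their order differs between libraries.

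RefSeq entries were given symbols from a RefSeq table (GRCh38.p14, names only, 96.6% matched) and summed per symbol. Members and lists were chosen with earlier results of these data known. Reads from an interval are 4 divided by the square of the upper bound over the value minus 1. In short entries with status OK and whole reads, they gave the FPKM that 1 read is worth at each span. The reads given for a member are its FPKM divided by that worth at the library's depth, whatever its status. Only the fits on reads used each entry's own interval. Depth came from olfactory receptor genes with whole reads and a fragment length of 200 ± 80 bp. Strand, hosts and exons were taken from GENCODE v44 on GRCh37.

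Genes with a mean of at least 1 FPKM (11367) were compared on log2(FPKM + 0.1) by limma (version 3.58.1, run under R 4.3.3), with a trend of the variance and Benjamini-Hochberg adjustment over all of them, at 0.05. Such differences understate the change of genes with low values above 0 in both groups. Where a group is at 0, they depend on the pseudocount and can be large on few reads. SNORD19, with 1 read in each 786-O siRNA library, was fitted at 8.22 in that line. The fit was tested on simulated data with normal noise, where changes were placed only in genes of small spread. Its recovery of changes in genes of few reads was not tested. The named genes are the 8 SNORD, 6 SNORA and 4 SCARNA genes with the highest mean, up to 10 called genes per comparison, 3 genes on either side of the minimum and the 10 with most reads, with their hosts. Other genes were named after their values were seen. Python version 3.11.15 with pandas version 2.3.3 was used outside R.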

Additional observations from a re-analysis of the deposited data

Results flagged for a closer look

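The interaction term in limma, which tests whether the log2 change after knockdown differs between the lines, passed an adjusted p of 0.05 for 3 of the 196 genes. SNORD19 and SNORD92 were kept by the minimum of 1 FPKM only through the siRNA libraries in which they had reads, so these calls are given as values and nothing is read from them about the lines. The fitted change in 786-O minus that in A498 was 8.22 for SNORD19, -7.79 for SNORD92 and -7.45 for SNORA20 on the scale of log2(FPKM + 0.1). These sizes depend on the pseudocount, since at least 1 group of each gene was at 0, and are neither bounds nor measured folds. SNORD19 had 1 read in each 786-O siRNA library and none elsewhere. SNORD92 had 1 read in each A498 siRNA library and none elsewhere. SNORA20 had 5 and 5 reads in the 786-O NTC libraries, 3 and 2 in the 786-O siRNA libraries, 2 in each A498 siRNA library and 0 in the A498 NTC libraries. An alternative chosen after seeing the data took reads from each entry's own interval, plus 1, on the log2 scale. With it limma called 0 members for this interaction and 24 genes of all those tested.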

How the results depend on the processing

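Between the lines, 49 members passed the limma threshold, and 27 did when values whose 95% interval reaches 0 were set to 0, of which 25 were among the 49. Leaving out 1 library gave 38 to 54. Over both lines after knockdown, 0 members were called, and 0 to 2 when 1 library was left out. In A498 the 8 calls became 3 with a pseudocount of 1, 0 without a filter on low values, 0 with the replicate block, 5 with values whose interval reaches 0 set to 0 (none of them among the 8), 0 with estimated reads plus 1, and 8 to 22 without single libraries. In 786-O the 5 calls became 2 without the filter, 2 with the replicate block, 1 with values whose interval reaches 0 set to 0, 0 with estimated reads, and 5 to 18 without single libraries. The 3 interaction calls became 1 with the replicate block, 7 with values whose interval reaches 0 set to 0, 0 with estimated reads, and 6 to 10 without single libraries. In 786-O these were 10, 18 and 13 calls without NTC 1, siRNA #1 and siRNA #2. Over both lines they were 1 without A498 NTC 2 and 2 without A498 siRNA #1. Where a library was left out within a line, the lone library was assumed to vary like the others. Estimated reads, taken from each entry's own interval, were added after seeing the data. The cause of these moves was not tested. Of the 34 named genes, 19 were called between the lines, and 13 of these stayed past the threshold in every alternative; after knockdown over both lines none was called. The 96 genes above 0 in all 8 libraries became 29 with a lower bound above 0. Libraries scaled by their median ratio, with factors of 0.964 to 1.03, gave 48 members between the lines. The replicate block gave 49 calls between the lines, 44 of them shared. The deviations of same-numbered libraries correlated at -0.0048 in A498 and 0.0064 in 786-O, and at -0.010 and 0.032 across the lines. In the siRNA libraries the number is that of the siRNA. These values therefore cannot decide whether libraries were paired.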

Other observations

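The genes whose log2(FPKM + 0.1) followed the 3 members with most reads most closely over the 8 libraries were found among all genes tested and are given as a description. They were LGMN, AP5S1 and DEDD for SNORA67, PIGW, SMYD2 and CNOT2 for SNORD36A, and ADNP2, RBMS3 and TWNK for SNORA10. The difference between the lines is part of this likeness, which came from 8 points.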
